A study of Mus musculus with 34 samples.

Results

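The inner cell mass of the blastocyst was set against primordial germ cells of the genital ridge, the founders of all tissues of the embryo against the founders of sperm and eggs. The comparison took every array labelled as inner cell mass cells of E3.5 (ICM, 3 arrays) and every distinct array labelled as primordial germ cells of E11.5 (PGC, 4 arrays), 7 of the 32 distinct arrays in the series. A column deposited as PGC replicate 5 equalled the mean of the other 4 and was left out, as was an embryonic stem cell column of the same kind, which leaves 32 of 34 columns. All 10833 probe sets with exactly 1 gene symbol were tested, and each of 8251 genes was read at its brightest probe set. Levels are log2 units of array signal as deposited, and a difference is the ICM mean minus the PGC mean on that log2 scale, with its standard error (SE) from limma.

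ICM was freed from the blastocyst by immunosurgery, in which antibody and complement destroy the outer trophectoderm. Replicates 2 and 3 came from C57Bl/6 x C3H F1 embryos, and replicate 1 from that same cross bred on to CD1 (labelled F1). PGC were C57Bl/6 cells sorted by flow cytometry for an Oct4/GFP reporter, so the level of Pou5f1 (Oct4) in them is not independent of how they were obtained. Both groups were of mixed sex, and neither carried a labelled mutation or treatment. Cell type, stage, strain and the way the cells were isolated changed together, so their parts in any difference cannot be told apart. Male C57Bl/6 lines of 2 kinds, both kept in medium with LIF and serum, were read beside the embryo cells. They were embryonic stem cells (ESC, 2 distinct arrays) and embryonic germ cells made from E12.5 germ cells (EGC, 3 arrays). The remaining groups of the series, all C57Bl/6, differed in age and cell type. They were E13.5 primordial germ cells, female and male (3 arrays each), and E11.5 somatic cells of gonad and mesonephros (4 arrays). The rest were E13.5 embryonic fibroblasts (6 arrays), and adult neural and male hematopoietic stem or precursor cells (2 arrays each). The somatic gonad, fibroblast and neural samples were of mixed sex. These groups, with ESC and EGC, are the other groups referred to below.

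As background, the inner cell mass gives rise to the epiblast, which forms the body, and to primitive endoderm, which lines the yolk cavity. Its pluripotency rests on Pou5f1, Nanog and Sox2. Primordial germ cells are set aside later from the epiblast by Prdm1, Prdm14 and Tfap2c, keep or regain many pluripotency genes, and erase DNA methylation and imprints while they migrate to and settle in the gonad. Explanted in culture, both kinds of cell can give pluripotent lines, yet PGC do not contribute to a chimaeric embryo when placed in a blastocyst.

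The arrays of each group were alike. Over all genes, ICM arrays correlated with each other at r = 0.976 to 0.983 and PGC replicates 1 to 3 at 0.994 to 0.996, while PGC replicate 4 correlated with those at 0.979 to 0.986 and ICM with PGC at 0.937 to 0.946. Among the 7 arrays, 68.6% of the variance lay on a principal component that separated the groups. The next components, at 11.8% and 10.4%, set ICM replicate 1 and PGC replicate 4 apart from the rest, and ICM replicate 3 from ICM replicate 2. Control signals differed between the groups: the 3′ minus 5′ signal of actin was 1.21 to 1.86 in ICM and 0.81 to 1.09 in PGC, and that of Gapdh 3.77 to 4.17 and 3.21 to 3.67. RNA quality or the amplification could move with the groups here, and their part in the results was not tested. The number of arrays limits the precision, and no detection calls were used, so the fold of a gene at background in 1 group is a rough measure.

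Most markers of other cells were not called between the groups, though some separated them. For the endothelial marker Eng (-1.22) and the mesenchyme marker Tcf4 (-1.01), all ICM arrays lay below every other array of the series. Over all genes, 18.8% were called higher in ICM and 23.0% lower. Of the 22 measured markers of gonad and mesonephros soma, 2 were called higher in ICM and 4 lower (median difference -0.09); the higher ones were Pdgfra and Cited2, which the blastocyst also uses, and the largest lower one was Dmrt1, which germ cells express. Without PGC replicate 4 or without ICM replicate 2 a single one of them was called lower, and without PGC replicate 3 there were 2. Of 18 mesenchyme markers 1 was higher and 2 lower, of 12 endothelial markers 1 and 2, of 18 macrophage and blood markers 2 and 1, and of 12 erythroid markers none in either direction. The largest of these was Lcp1 (2.49), an actin bundler of blood cells that also stands in the trophectoderm list read below. A dimmer Lcp1 probe set was called lower (-0.29). Single arrays moved these small counts: mesenchyme 1 lower without ICM replicate 2, endothelium 2 higher without ICM replicate 3, macrophage 1 higher without ICM replicate 1 or 3 or PGC replicate 1 or 3 and 3 lower without ICM replicate 1 but 0 without ICM replicate 2 or PGC replicate 4 in limma's fits, erythroid 1 higher without ICM replicate 2 or PGC replicate 4 and 1 lower without PGC replicate 3. The mean level of the erythroid list was 7.62 in PGC replicate 4 and 6.87 to 7.33 in the other PGC arrays, against 9.64 in the reporter-negative gonad and mesonephros. The part of such cells in the values of replicate 4 was not tested.

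ICM and PGC differed at a large share of the genes. In limma's test (adjusted p under 0.05, Benjamini-Hochberg over all probe sets), 1548 of 8251 genes were higher in ICM (18.8%) and 1897 lower (23.0%), 3445 in all (41.8%). The difference was at least 2-fold for 402 higher genes (4.87%) and 316 lower genes (3.83%), so large rises outnumbered large falls although small falls outnumbered small rises. The median difference over all genes was -0.04. Counts in the gene lists are to be read beside the shares over all genes, 18.8% higher and 23.0% lower. The 3 ICM and 4 PGC arrays did not overlap in 3029 genes (36.7%), of which 2712 were called. Called genes of the lists below were named by the size of their difference, which favours a lack of overlap. Statements of no overlap in them are descriptions. With each array centred on its median, 1750 genes were higher and 1677 lower. In 122 genes, 2 probe sets were called in opposite directions, and the text says so where such a gene is named. Ctsc, Eif2s2, Gdf3, H2-D1, Hspa4, Lamc1, Ldhb, Pkp2, Rab11a and Spin1, all named below by their brightest probe set, have at least 1 dimmer probe set that was not called.

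**Figure D1:**
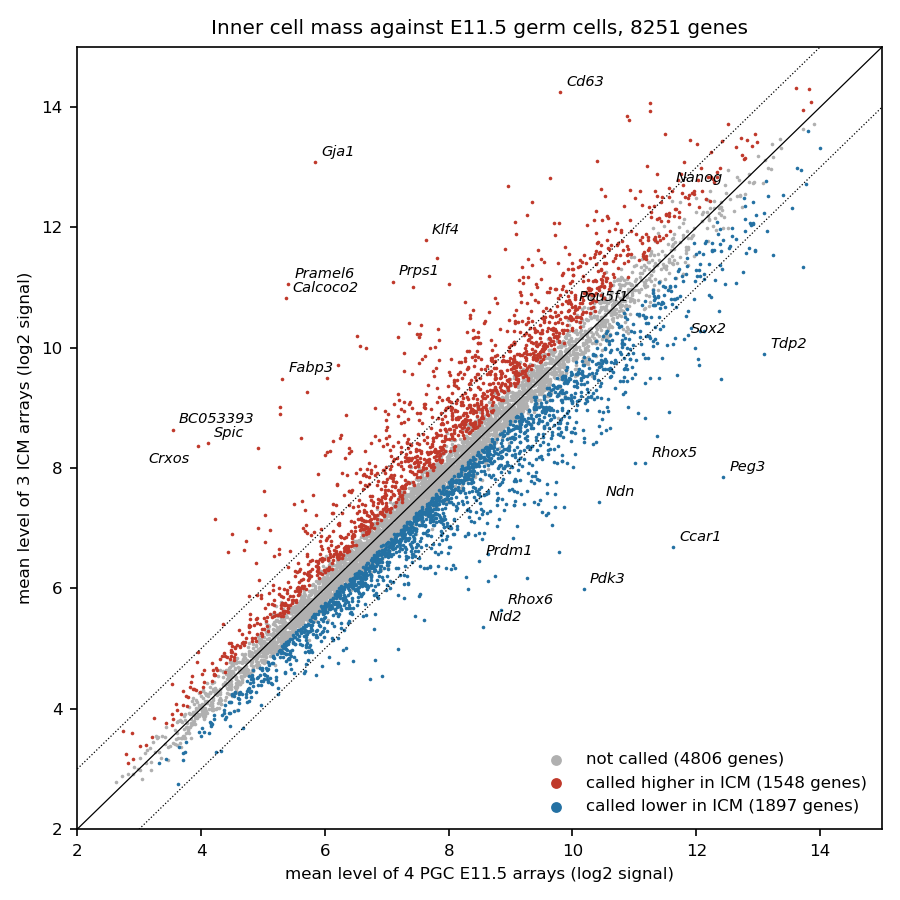
Mean level of each of 8251 genes in the 3 ICM arrays (y axis) against the 4 PGC E11.5 arrays (x axis), both in log2 signal; the solid line marks equal levels and the dotted lines a 2-fold difference. Red points are the 1548 genes called higher in ICM and blue points the 1897 called lower; Gja1 and Pramel6 lie far above the line, and Peg3, Ccar1 and Rhox5 far below it.

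The largest rises were genes of cell contact, of the early embryo and of membrane traffic. Gja1 encodes connexin 43, which forms gap junctions between cells. It read 13.04, 13.04 and 13.20 in ICM and 6.20, 5.41, 4.94 and 6.81 in PGC, a 153-fold difference (7.25 ± 0.24 SE, adjusted p = 5.72e-19), and its second probe set differed by 3.95. The ICM arrays were nearly equal, and all lay far above the highest PGC array. Pramel6, a gene of the leucine-rich PRAME family known from preimplantation embryos, read 11.44, 11.37 and 10.37 in ICM and 5.54, 5.24, 5.36 and 5.50 in PGC (50.2-fold, 5.65 ± 0.16, adjusted p = 8.3e-21). Its PGC level lay within the range of the 8 other groups, 5.05 to 5.57, so ICM was the 1 group of 10 above that range. The neighbouring gene Pramel7, which was chosen after its values were seen, read 9.76, 9.87 and 9.50 against 6.21, 6.13, 6.19 and 6.33 (11.3-fold, adjusted p = 5.19e-22). Both genes were high in every ICM array, with no overlap, which the choice of Pramel6 required.

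The starts of these 2 neighbouring genes on chromosome 2 are shown because both were high in ICM alone of the compared groups and because their promoters hold few CG pairs, the letters at which DNA is methylated. Each runs 5′ to 3′ from 250 bases before to 50 after the start listed by RefSeq (GRCm38.p6), Pramel6 at chr2:87506315-87506614 on the + strand and Pramel7 at chr2:87492369-87492668 on the - strand, with CG in capitals. CG reads the same on both strands.
Pramel6: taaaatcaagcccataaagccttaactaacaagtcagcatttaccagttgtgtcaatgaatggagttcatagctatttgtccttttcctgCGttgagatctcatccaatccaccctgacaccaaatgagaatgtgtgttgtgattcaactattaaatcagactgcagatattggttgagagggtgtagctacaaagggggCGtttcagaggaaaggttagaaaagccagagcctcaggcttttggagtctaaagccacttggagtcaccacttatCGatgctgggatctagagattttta
Pramel7: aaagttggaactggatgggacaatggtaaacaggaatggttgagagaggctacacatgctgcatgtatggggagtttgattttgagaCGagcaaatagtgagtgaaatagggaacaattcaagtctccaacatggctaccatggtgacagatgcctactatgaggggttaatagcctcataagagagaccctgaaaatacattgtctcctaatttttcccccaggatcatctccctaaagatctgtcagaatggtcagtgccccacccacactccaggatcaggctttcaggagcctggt
The Pramel6 window holds 3 CG and the Pramel7 window 1. Over the 6576 tested genes with such a window, taking the richest window of each gene, the median was 20 and 15.2% of genes had 5 or fewer. Among genes higher in ICM by at least 2-fold the median was 21.5 and 7.49% had 5 or fewer, and among those lower by at least 2-fold the median was 25 and the share 3.05%.

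Calcoco2, an autophagy receptor, read 10.94, 11.10 and 10.44 in ICM and 5.26 to 5.58 in PGC (43.8-fold, 5.45 ± 0.16, adjusted p = 3.29e-20). Crxos, a homeobox gene of the early embryo, was 21.2-fold higher (7.69, 8.92 and 8.47 against 3.82 to 4.08), and 6.76 by its dimmer probe set. Spic, an Ets-family transcription factor, was 19.9-fold higher (8.77, 8.01 and 8.49 against 3.83 to 4.23, adjusted p = 2.17e-19). In all 3 genes each ICM array stood above each PGC array, as their choice required. For Crxos and Spic the 8 other group means ended at 4.35 and 5.42. Cd63, a tetraspanin of late endosomes, read 14.04, 14.77 and 13.93 in ICM and 10.03, 9.73, 9.23 and 10.22 in PGC (21.7-fold, 4.44 ± 0.18), and PGC was the lowest of all groups. Prps1, which makes the sugar phosphate for nucleotides, read 10.58, 11.46 and 11.25 against 6.73 to 7.49. Vnn1, a pantetheinase, was 13.3-fold higher. The ferric reductase gene Frrs1 was 12.3-fold higher, and the tropomyosin gene Tpm4 13.4-fold.

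ICM replicate 3 was low for a few of the largest rises. BC053393, an uncharacterised transcript, read 9.58, 10.42 and 5.92 in ICM and 3.47 to 3.62 in PGC (34.3-fold, 5.10 ± 0.51, adjusted p = 5.98e-09). Fabp3, which binds fatty acids, read 10.18, 11.06 and 7.23 against 4.96 to 5.60 (18.2-fold), and the aldo-keto reductase gene Akr1b8 12.18, 12.42 and 9.88 against 7.62 to 8.11 (12.8-fold). Even the lowest ICM array stood above PGC in all 3, as their choice required. With replicate 3 as the only ICM array the differences were 2.38, 1.92 and 2.06. Of the 402 genes higher by at least 2-fold, 59 were lower in replicate 3 than in the mean of replicates 1 and 2 by at least 1 log2 unit and 10 were higher; over all 8251 genes 131 were lower and 46 higher by that much. With replicate 3 alone, 1302 genes were called higher (15.8%) and 1454 lower (17.6%), and 372 of the 402 and 301 of the 316 genes with a difference of at least 2-fold kept their call. In that fit the lone array is assumed to vary like the other groups.

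**Figure D2:**
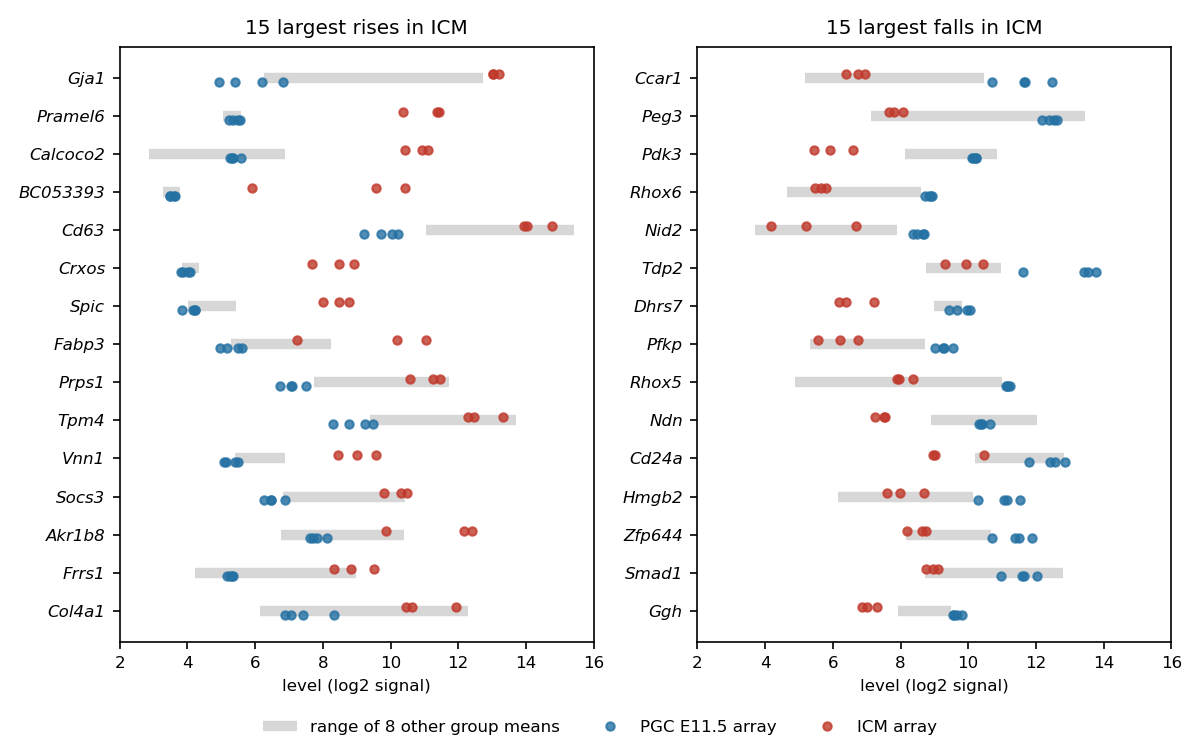
Level in log2 signal (x axis) of the 15 genes with the largest rises (left) and the 15 with the largest falls (right) in each ICM array (red) and each PGC E11.5 array (blue), with the range of the 8 other group means as a grey bar. Red and blue points do not overlap in any row, which the choice of these genes required; the ICM points of Pramel6, Crxos, Spic and BC053393 lie beyond the grey bars.

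Among the largest falls were imprinted genes, X-linked homeobox genes and genes of sugar metabolism. Peg3, a zinc finger gene expressed from the paternal copy, read 8.08, 7.81 and 7.65 in ICM and 12.38, 12.62, 12.54 and 12.17 in PGC, 24.0-fold lower (-4.58 ± 0.22 SE, adjusted p = 1.13e-15). Its other probe sets fell by 1.03 and 1.32. The 2 groups were each tight and more than 4 log2 units apart. Rhox5, an X-linked homeobox gene of the placenta and germ line, read 8.38, 7.96 and 7.89 against 11.24, 11.17, 11.14 and 11.13 (8.53-fold lower, adjusted p = 9.29e-16). Its neighbour in the Rhox cluster, Rhox6, read 5.64, 5.48 and 5.79 against 8.85, 8.91, 8.92 and 8.72 (9.26-fold lower, adjusted p = 2.04e-16). Every PGC array was higher than every ICM array in both, as their choice required. Necdin (Ndn), another imprinted gene of the paternal copy, fell 7.98-fold by its brightest probe set, and its dimmer one differed by -0.26 without a call.

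The start regions of Rhox5 and Peg3 are shown because both genes are known to be silenced by methylation of the promoter, on CG pairs that PGC lose at this stage. The windows are those of RefSeq (GRCm38.p6), at chrX:37754358-37754657 on the + strand for Rhox5 and chr7:6730370-6730669 on the - strand for Peg3, 5′ to 3′, with CG in capitals.
Rhox5: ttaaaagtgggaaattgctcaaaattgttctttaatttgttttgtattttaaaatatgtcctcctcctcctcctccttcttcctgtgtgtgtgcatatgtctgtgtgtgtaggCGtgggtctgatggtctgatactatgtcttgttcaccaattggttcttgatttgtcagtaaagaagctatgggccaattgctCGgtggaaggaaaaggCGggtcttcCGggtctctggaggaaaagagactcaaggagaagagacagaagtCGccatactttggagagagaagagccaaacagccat
Peg3: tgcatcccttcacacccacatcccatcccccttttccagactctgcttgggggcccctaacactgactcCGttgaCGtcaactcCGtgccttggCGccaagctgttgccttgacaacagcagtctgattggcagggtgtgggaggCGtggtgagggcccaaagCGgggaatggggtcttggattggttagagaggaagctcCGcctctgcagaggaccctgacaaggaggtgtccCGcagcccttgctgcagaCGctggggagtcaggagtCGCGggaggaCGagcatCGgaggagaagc
The Rhox5 window holds 5 CG, as few as in the poorest 15.2% of genes (5 or fewer), and the Peg3 window 13. No methylation was measured on these arrays, and a count of CG in the window says nothing of its state in either group.

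Further large falls read as follows. Ccar1, a coactivator in cell cycle and apoptosis control, read 6.75, 6.95 and 6.38 in ICM and 11.65, 12.48, 11.67 and 10.70 in PGC (30.6-fold lower, -4.94 ± 0.27 SE, adjusted p = 2.89e-14), though its dimmer probe set fell by 0.98. Pdk3, a kinase that blocks pyruvate entry into the citric acid cycle, read 5.45, 5.93 and 6.60 against 10.15, 10.22, 10.11 and 10.24 (18.2-fold lower). Tdp2, a DNA repair enzyme, fell 9.16-fold, with PGC replicate 4 at 11.63 and the other 3 PGC arrays at 13.42 to 13.78, all above the highest ICM array at 10.44. The basement membrane gene Nid2 fell 9.19-fold, the dehydrogenase gene Dhrs7 9.06-fold, the glycolytic gene Pfkp 8.59-fold and Ggh, which trims folates, 6.08-fold. The surface glycoprotein gene Cd24a fell 7.59-fold, the chromatin gene Hmgb2 7.57-fold, the zinc finger gene Zfp644 7.14-fold and Smad1, which carries BMP signals, 6.18-fold. None of these genes had a PGC array as low as an ICM array, as their choice required.

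Some of these genes set 1 group apart from the whole series. In 42 of the 316 large falls all ICM arrays lay below each of the 29 other arrays, and in 21 all PGC arrays lay above each of the 28 others, among them Nid2, Tdp2, Pfkp, Rhox5 and Prdm1. In 58 the PGC arrays lay above each of the 22 arrays not labelled primordial germ cells. Those 22 include EGC, and also ICM, whose mean was low by the choice of these genes. Of the 402 large rises, 122 had all ICM arrays above each of the 29 others. Among them were Gja1, Pramel6, Calcoco2, BC053393, Crxos, Spic, Vnn1 and Eomes. For Gja1 the margin was small, since ESC and EGC stood near its ICM level, as given below. In 5 of the large rises all PGC arrays lay below all others. These counts describe the arrays and were not tested.

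**Figure D3:**
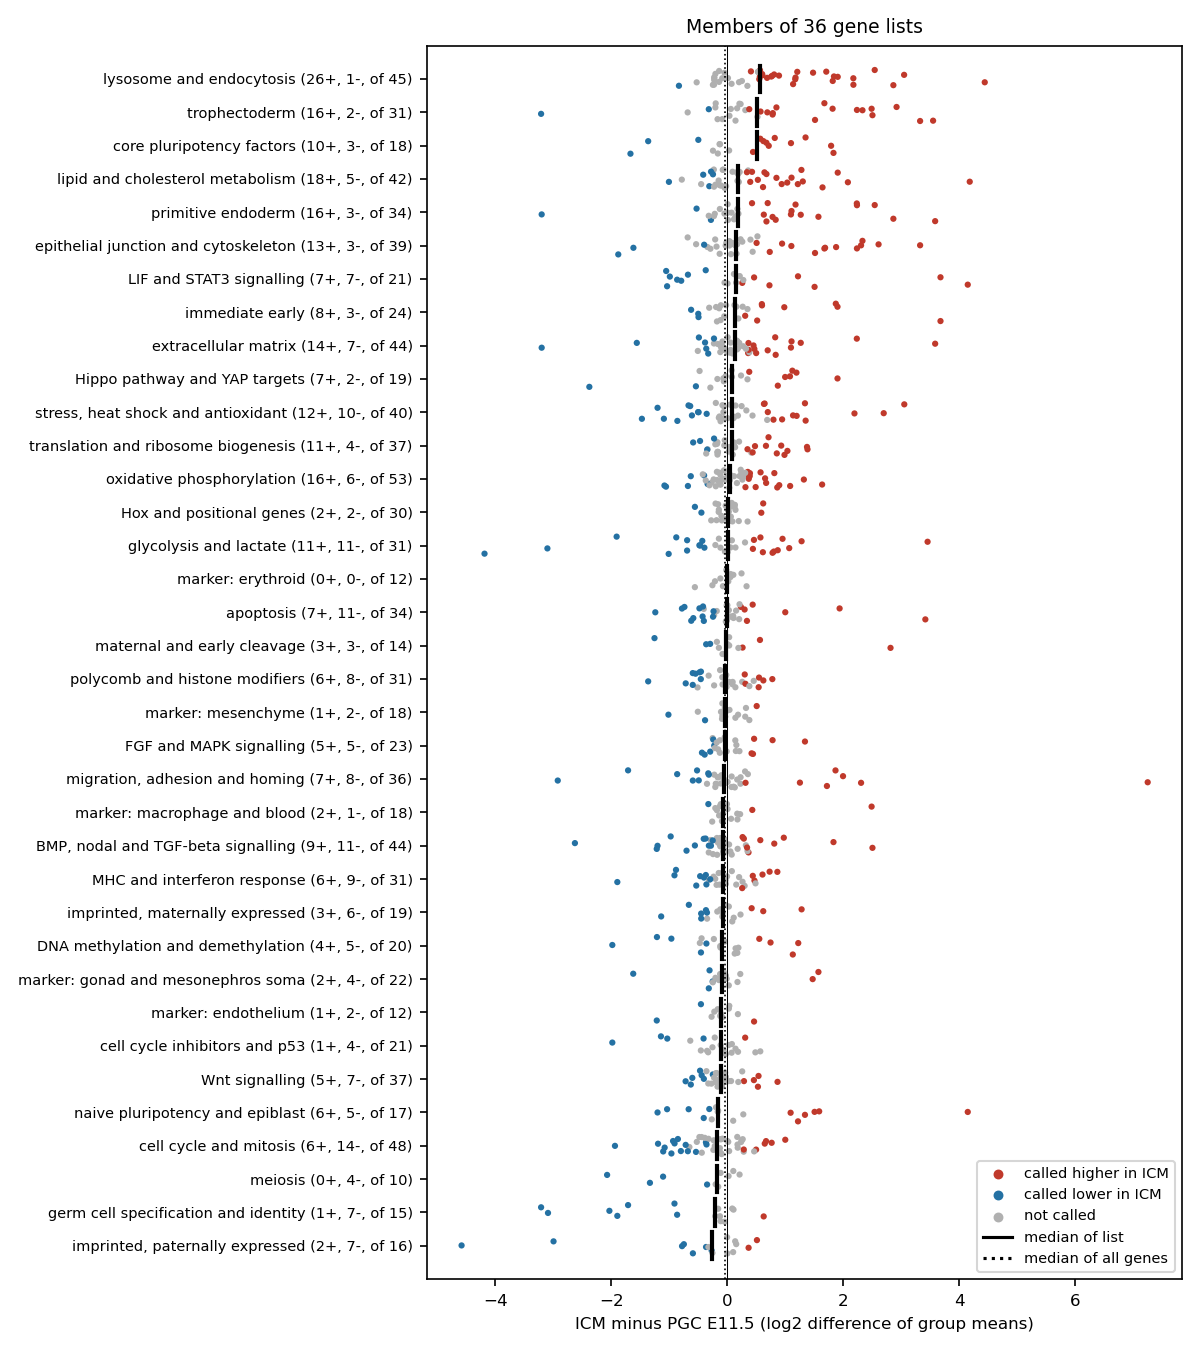
Difference between the ICM and PGC E11.5 means (x axis, log2) for each measured member of 36 gene lists (y axis, ordered by list median), with the counts called higher and lower beside each name. Solid ticks mark list medians and the dotted line the median of all genes, -0.04; the lysosome list (26 of 45 higher) stands at the top and the paternally expressed imprinted genes (7 of 16 lower) at the bottom.

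Core pluripotency genes were read in both groups. Of 18 measured, 10 rose (55.6%, beside 18.8% of all genes) and 3 fell (16.7%, beside 23.0%), with a median of 0.51. With no group but ICM and PGC in the fit 5 rose, and Pou5f1, Zfp42, Trim28, Gdf3 and Trap1a lost their calls. Over the 20 alternatives tried for each list, 5 to 10 rose and 2 to 3 fell; such ranges are given below as ranges over the alternatives. Nanog, whose loss leaves no epiblast, read 12.95, 11.92 and 13.12 in ICM and 11.45, 11.74, 11.63 and 11.43 in PGC (2.14-fold, 1.10 ± 0.19 SE, adjusted p = 4.92e-05); its dimmer probe set differed by -0.17 without a call. Pou5f1 read 10.81, 10.01 and 11.20 against 10.19, 10.04, 9.93 and 9.84 (1.60-fold, adjusted p = 0.00568), with ICM replicate 2 inside the PGC range, and without ICM replicate 3 it was not called (0.42). Its dimmer probe set differed by -0.23 without a call, and with its probe sets averaged Pou5f1 was not called (0.22). Sox2, the partner of Pou5f1 on DNA, went the other way at 10.35, 10.16 and 9.92 against 11.62, 12.08, 11.88 and 11.65 (3.18-fold lower, -1.67 ± 0.14, adjusted p = 1.77e-10). The Sox2 arrays did not overlap, and its fall was as large with ICM replicate 3 alone (-1.89). Sall4 (-0.16), Dppa3 (-0.12) and Utf1 (-0.13), each at 9.8 or above in all arrays of both groups, were not called.

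Other members of this list moved in both directions. Dppa2, a chromatin factor of early embryos, read 12.14, 11.66 and 12.30 in ICM and 10.14, 10.45, 10.20 and 10.18 in PGC (3.46-fold, 1.79 ± 0.14 SE, adjusted p = 7.81e-11). Its close relative Dppa4 had ICM arrays at 11.33, 11.61 and 12.31 and PGC arrays at 12.41, 12.23, 12.21 and 12.14. ICM replicate 3 lay within the PGC range, and the fall of Dppa4 (-0.50, adjusted p = 0.0132) was not called without ICM replicate 1 (-0.29) or 2 (-0.43) and was -0.78 without ICM replicate 3. Tdgf1 (Cripto), the Nodal co-receptor, was 3.56-fold higher (7.80, 8.09 and 8.59 against 6.09 to 6.59) and the F-box gene Fbxo15 2.55-fold (11.72, 12.21 and 12.30 against 10.64 to 10.86). Zfp42 (Rex1) rose 1.77-fold and Trim28, a corepressor that guards imprints, 1.54-fold. Calls for Dppa5a (0.45), Gdf3 (0.57) and Trap1a (0.72) were lost without ICM replicate 2 (0.39), without ICM replicate 3 (0.21) or PGC replicate 1 (0.53), and without ICM replicate 2 (0.25) or PGC replicate 4 (0.61), in that order, and Gdf3 was 0.92 without ICM replicate 2. Phc1, a polycomb gene, fell 2.57-fold (8.37, 8.07 and 8.01 against 9.31 to 9.82).

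Naive pluripotency and epiblast genes split. Of 17 measured, 6 rose (35.3%, beside 18.8% of all genes) and 5 fell (29.4%, beside 23.0%), with a median of -0.16. Klf4, a zinc finger factor of naive cells and of reprogramming, read 11.65, 11.57 and 12.14 in ICM and 7.85, 7.62, 7.33 and 7.73 in PGC (17.7-fold, 4.15 ± 0.26 SE, adjusted p = 6.32e-13). The Klf4 groups lay far apart, but its dimmer probe set was called lower (-0.50). Its relative Klf5 rose 3.00-fold (9.76, 8.62 and 8.61 against 7.16 to 7.67), while Klf2 fell 1.59-fold (8.92, 8.50 and 8.59 against 9.25 to 9.50). Each of these 3 genes had no overlap between the groups, as had 10 of the 17 in the list, beside 36.7% of all genes. Tfcp2l1, a target of LIF signals, rose 2.84-fold, Tbx3 2.33-fold and Nr5a2, which binds the Pou5f1 gene, 2.13-fold. Gbx2 fell 2.05-fold and Nodal 2.30-fold (7.41, 6.95 and 7.61 against 8.30 to 8.72). Esrrb had a call lower (-0.31) that was lost without ICM replicate 2 (-0.24) or 3 (-0.21) or PGC replicate 3 (-0.29) or 4 (-0.30), and was -0.48 without ICM replicate 1.

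**Figure D4:**
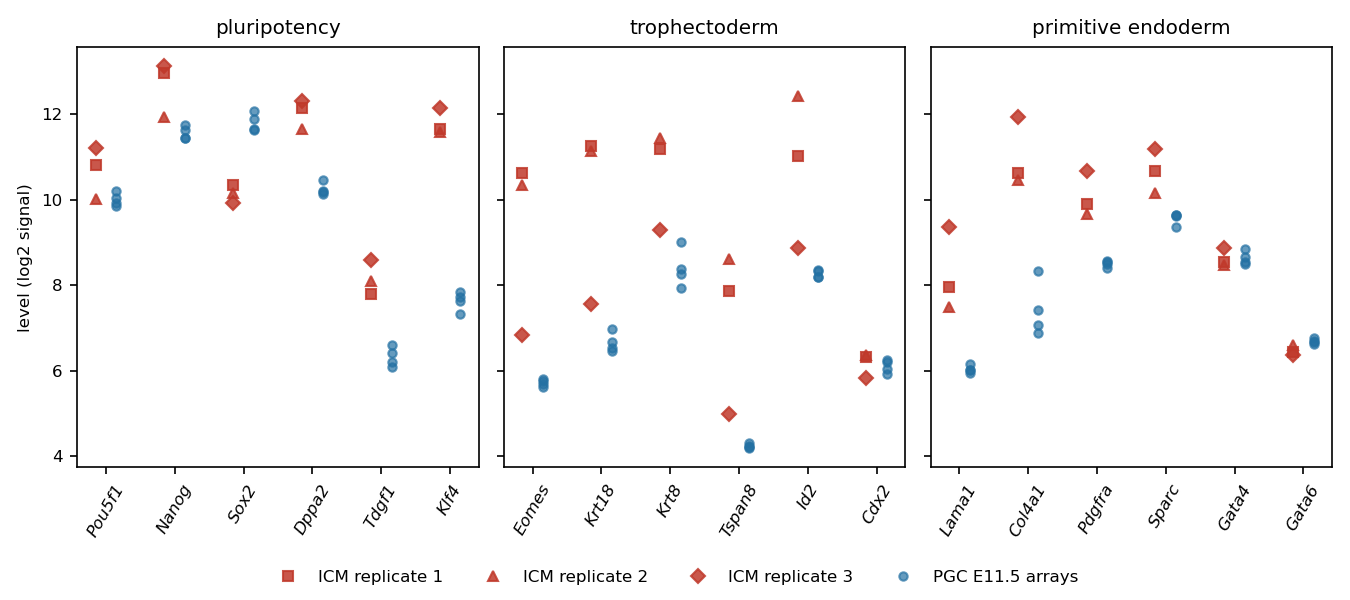
Level in log2 signal (y axis) of 6 pluripotency, 6 trophectoderm and 6 primitive endoderm genes in ICM replicate 1 (square), 2 (triangle) and 3 (diamond) and in the 4 PGC E11.5 arrays (blue). ICM replicate 3 lies near the PGC arrays for Eomes, Krt18, Tspan8 and Id2 and above the other ICM arrays for Lama1, Col4a1 and Pdgfra, while Cdx2 and Gata4 do not separate the groups.

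Germ cell genes included several of the larger falls. Of 15 measured, 7 were lower in ICM (46.7%, beside 23.0%) 1 higher (6.67%) and 7 not called, with a median of -0.21. Prdm1, the repressor that starts the germ cell program, read 6.57, 6.52 and 6.28 in ICM and 8.62, 8.91, 8.75 and 7.69 in PGC (4.09-fold lower, -2.03 ± 0.18 SE, adjusted p = 7.49e-10). Kit, the receptor that migrating germ cells need, read 6.40, 6.84 and 7.23 against 8.78, 8.77, 8.68 and 7.91 (3.27-fold lower, adjusted p = 1.36e-06). PGC replicate 4 was the lowest PGC array in both, and still above ICM. Tfap2c, which also serves in the trophectoderm, was high in both groups and fell 1.82-fold (11.47, 11.43 and 10.69 against 11.71 to 12.21). Ifitm3 and Ifitm1, interferon-induced membrane proteins that mark early germ cells, fell 3.72-fold and 1.88-fold, whereas Alpl, the alkaline phosphatase used to stain both cell types, rose 1.55-fold. The later germ cell genes Ddx4 (-0.16) and Dazl (0.11) were not called at their brightest probe sets, though another Dazl probe set was called lower (-1.65).

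Some genes of meiosis were also higher in PGC. Of 10 measured, 4 were lower in ICM (40.0%, beside 23.0% of all genes) and limma called 0 higher (beside 18.8%), with a median of -0.18. Syce2, of the synaptonemal complex, read 6.72, 6.80 and 6.19 in ICM and 8.30, 8.76, 8.71 and 8.78 in PGC (4.20-fold lower, -2.07 ± 0.15 SE, adjusted p = 2.28e-11). Stag3, the meiotic cohesin subunit, fell 2.52-fold (6.71, 6.68 and 6.67 against 7.70 to 8.26) and Psmc3ip, which helps recombination, 2.15-fold. Each had every PGC array above every ICM array. Stra8, the switch into meiosis (0.21), and the recombinase gene Dmc1 (0.02) were not called. Oocyte and early cleavage genes were mixed, with 3 of 14 higher and 3 lower (21.4% each, beside 18.8% and 23.0% of all genes, median -0.02). Timd2 was 7.05-fold higher in ICM (10.49, 10.86 and 9.78 against 7.45 to 7.66, with 5.91 and 3.30 by its other probe sets) and the zona gene Zp3 1.48-fold, while Spin1, which binds the meiotic spindle, was 2.39-fold lower.

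Trophectoderm genes were high in 2 of the 3 ICM arrays. Of 31 measured, 16 were higher in ICM (51.6%, beside 18.8%) and 2 lower (6.45%), with a median of 0.52; without ICM replicate 2 there were 5 lower. The mean level of the list was 8.11, 8.32 and 7.24 in ICM replicates 1 to 3 and 7.03 to 7.13 in PGC. Eomes, a T-box factor of the trophoblast, read 10.61, 10.35 and 6.84 in ICM and 5.80, 5.62, 5.69 and 5.76 in PGC (11.7-fold, 3.55 ± 0.46 SE, adjusted p = 4.43e-07). Keratin 18 (Krt18) read 11.26, 11.14 and 7.57 against 6.46 to 6.98, and keratin 8 (Krt8) 11.18, 11.43 and 9.29 against 7.94 to 9.01. The tetraspanin gene Tspan8 read 7.87, 8.61 and 4.98 against 4.19 to 4.30, and Id2, an inhibitor of differentiation factors, 11.03, 12.41 and 8.86 against 8.18 to 8.36. In these 5 genes replicate 3 was the lowest ICM array, though still above PGC. Cdx2, which defines trophectoderm, was not called (0.06) and read 6.31, 6.37 and 5.83 in ICM, within or near its PGC range of 5.93 to 6.24.

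With ICM replicate 3 alone, 11 trophectoderm genes were higher and 4 lower, and Eomes, Krt18, Krt8, Tspan8 and Id2 differed by 1.13, 0.91, 0.89, 0.75 and 0.60. The last, for Id2, was then not called (adjusted p = 0.0602). The desmosome gene Dsg2 differed little between ICM arrays (9.19, 9.83 and 9.83 against 6.95 to 7.54, 5.04-fold, 2.54 with replicate 3 alone), while its dimmer probe set was called lower (-0.34). In such bulk samples, fewer cells of a type and less RNA per cell cannot be told apart. Whether trophectoderm cells remained after immunosurgery in replicates 1 and 2 was not tested.

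Epithelial junction and cytoskeleton genes share 10 of their 39 measured members with the trophectoderm list, Krt8, Krt18 and Dsg2 among them. Of the 39, 13 were higher in ICM (33.3%) and 3 lower (7.69%), with a median of 0.16; 5 were lower without ICM replicate 2, PGC replicate 2 or PGC replicate 4, and 11 were higher and 7 lower with ICM replicate 3 alone. Their mean level was 8.88, 9.14 and 8.28 in the ICM arrays and 8.25 to 8.32 in PGC. Epcam, an adhesion protein, read 10.42, 10.64 and 8.95 against 7.31 to 7.83 (4.96-fold), and the desmosomal cadherin gene Dsc2 7.12, 8.74 and 7.02 against 4.72 to 5.19 (6.11-fold). Tropomyosin 1 (Tpm1) read 11.47, 11.81 and 9.94 against 9.09 to 9.24 (3.68-fold). None of these 3 genes overlapped, and replicate 3 was the lowest ICM array in each. Plakophilin 2 (Pkp2) was lower in ICM, with 9.44, 10.15 and 7.29 against 10.54 to 10.62 (-1.62, and -0.78 without ICM replicate 3), as was S100a6 (8.60, 9.36 and 9.10 against 10.55 to 11.16, 3.68-fold). E-cadherin (Cdh1) was not called (0.13). Lgals1 was not called (-0.34) and turned on 1 array: it read 13.44, 13.57 and 9.79 in ICM and 12.40 to 12.90 in PGC, was higher without ICM replicate 3 (0.90) and lower with it alone (-2.82).

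Of 34 measured primitive endoderm genes, 15 were not called, 16 rose (47.1%, beside 18.8%) and 3 fell (8.82%), with a median of 0.18; without PGC replicate 4 a single one fell. The list mean was 8.28, 8.34 and 8.47 in ICM and 7.73 to 7.94 in PGC, and with ICM replicate 3 alone 18 were higher and 2 lower. The collagen IV gene Col4a1 read 10.63, 10.46 and 11.94 in ICM and 7.41, 7.06, 6.89 and 8.34 in PGC (12.0-fold, 3.59 ± 0.28 SE, adjusted p = 3.97e-11). The laminin gene Lama1 read 7.96, 7.48 and 9.36 against 5.94 to 6.15 (4.71-fold), and Pdgfra, the receptor that marks primitive endoderm, 9.89, 9.66 and 10.67 against 8.40 to 8.56 (2.98-fold). Replicate 3 was the highest ICM array in these 3 genes. A dimmer Pdgfra probe set was called lower (-0.39). The cathepsin gene Ctsl rose 7.29-fold (12.81, 13.94 and 14.62 against 10.63 to 11.19) and Dab2, an endocytic adaptor, 5.83-fold (11.34, 12.63 and 9.64 against 8.16 to 9.33). Gata4 (-0.01) and the brightest probe set of Gata6 (-0.21), the factors that set primitive endoderm apart, were not called. Both other Gata6 probe sets were called higher, by 0.28 and by 1.75, the latter from a low PGC mean of 2.82.

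Imprinted genes, which are read from 1 parental copy, were taken by parent. Of 16 measured genes expressed from the paternal copy, 7 fell (43.8%, beside 23.0%) and 2 rose, with a median of -0.26; 1 rose without ICM replicate 2 or 3 or PGC replicate 2 or 3, and 3 to 7 fell over the alternatives (4 with no group but ICM and PGC in the fit). Beside Peg3 and Ndn, Mest fell 1.72-fold (6.77, 6.79 and 6.52 against 7.01 to 8.03) and Impact 1.68-fold, the latter not called without ICM replicate 3 (-0.37). Magel2, a neighbour of Ndn, differed by -0.37, a call lost without ICM replicate 2 (-0.30) or 3 (-0.39) or PGC replicate 2 (-0.28) or 3 (-0.37). Peg10 rose 1.29-fold. Igf2, the fetal growth factor, read 12.43, 12.69 and 12.72 in ICM and 12.29, 11.84, 11.58 and 12.67 in PGC, with overlap; its rise (0.51, adjusted p = 0.0184) was lost without any of ICM replicates 2 and 3 (0.47 and 0.46) and PGC replicates 2 and 3 (0.43 and 0.34), and its other probe set differed by -0.24. Of 19 maternally expressed genes 3 rose and 6 fell (15.8% and 31.6%, beside 18.8% and 23.0% of all genes, median -0.08). Phlda2, a brake on placental growth, fell 2.20-fold (7.24, 6.91 and 7.43 against 7.93 to 8.87) and Gnas, a G protein subunit, rose 2.43-fold (12.08, 11.64 and 12.21 against 10.14 to 11.00), though its 2 dimmer probe sets differed by 0.06 and 0.08 without a call. Grb10 rose 1.34-fold, with 0.08 and -0.23 at its other probe sets, and Igf2r was not called (0.09).

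Xist, the RNA that coats an X chromosome to silence it, read 6.22, 7.37 and 6.38 in ICM and 5.33, 5.16, 5.27 and 5.24 in PGC (2.65-fold, 1.40 ± 0.31 SE, adjusted p = 0.000628). All ICM arrays lay above all PGC arrays. Of 259 X-linked genes, 48 were higher in ICM (18.5%) and 68 lower (26.3%), with a median of -0.05. On the autosomes 1498 of 7971 were higher (18.8%) and 1823 lower (22.9%), with a median of -0.04.

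Genes of DNA methylation and demethylation were mixed, with 4 of 20 higher in ICM and 5 lower (median -0.09). The de novo methyltransferase gene Dnmt3a read 7.82, 7.79 and 7.94 in ICM and 6.69, 6.96, 6.61 and 6.60 in PGC (2.19-fold, 1.13 ± 0.18 SE, adjusted p = 1e-05); its dimmer probe set differed by 0.04. Tet1, which oxidises methylcytosine, read 5.26, 4.46 and 4.84 against 6.10, 6.06, 6.10 and 6.00 (2.32-fold lower, adjusted p = 8.24e-09). The 2 genes moved in opposite directions with no overlap of arrays. The maintenance genes Dnmt1 (-0.12) and Uhrf1 (0.17) were not called. Gadd45a, a stress gene linked to demethylation, fell 3.95-fold (9.62, 10.20 and 10.18 against 11.64 to 12.49) and its relative Gadd45g rose 2.34-fold, while Parp1 fell 1.95-fold.

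Polycomb and histone modifier genes went both ways. Of 31 measured, 6 were higher and 8 lower (19.4% and 25.8%, beside 18.8% and 23.0% of all genes; median -0.03). The higher count fell to 3 without ICM replicate 2 or PGC replicate 4 and to 1 with array weights or with no group but ICM and PGC in the fit, and the lower count to 5 with ICM replicate 3 alone. Beside Phc1, Setdb1, which methylates histone H3 at imprints and repeats, fell 1.51-fold (8.95, 9.26 and 8.84 against 9.54 to 9.70) and Pcgf2 1.46-fold, while Ehmt2 (G9a) rose 1.46-fold. The groups did not overlap in these 3 genes. Ezh2, the polycomb methyltransferase, was not called (-0.08). Its partner Eed overlapped between groups, and its rise (0.78, adjusted p = 0.038) was lost without ICM replicate 2 (0.70) or 3 (0.53) or PGC replicate 1 (0.81) or 4 (0.49).

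Signals that steer the blastocyst were read next. Fgf4, made by the epiblast to induce primitive endoderm and feed the trophoblast, read 11.63, 11.26 and 12.33 in ICM and 10.43, 10.34, 10.29 and 10.55 in PGC (2.53-fold, 1.34 ± 0.14 SE, adjusted p = 1.97e-08). Its receptor genes Fgfr2 and Fgfr1 rose 1.72-fold (9.41, 10.11 and 9.34 against 8.73 to 8.94) and 1.34-fold, and 2 dimmer Fgfr2 probe sets were not called (-0.12 and -0.16). None of these 3 genes overlapped between groups. Over the list, 10 of 23 did not overlap, beside 36.7% of all genes. Fgfr3, another receptor gene, was called lower (-0.39, with overlap). Of 23 FGF and MAPK genes in all, 5 were higher and 5 lower (21.7% each, beside 18.8% and 23.0% of all genes, median -0.04). The lower count was 3 without ICM replicate 2 or PGC replicate 2 or 4. Over the alternatives 2 to 6 were higher and 1 to 6 lower.

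LIF acts through the receptor pair Lifr and Il6st on STAT3, which turns on Klf4, Tfcp2l1 and its own inhibitor Socs3. Of 21 genes measured, 7 were higher and 7 lower (33.3% each, beside 18.8% and 23.0% of all genes, median 0.15). Socs3 read 10.49, 10.31 and 9.81 in ICM and 6.48, 6.27, 6.47 and 6.87 in PGC (12.8-fold, 3.68 ± 0.20 SE, adjusted p = 3.84e-14), with 0.31 and no call at its dimmer probe set. Socs3 had no overlap, and neither did Il6st, which fell 1.82-fold (8.14, 7.56 and 8.32 against 8.59 to 9.00). Lifr read 6.77, 6.71 and 8.49 against 8.17 to 8.50: replicate 3 lay within the PGC range, the fall (-0.99) was lost without ICM replicate 1 (-0.71) or 2 (-0.68) and was -1.58 without ICM replicate 3, and 2 other probe sets were called higher (0.26 and 0.80). Il6ra rose 1.66-fold, Socs2 fell 2.08-fold and Stat5b 1.60-fold, and Stat3 itself was not called (0.28).

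The start region of Socs3 is shown because it holds the letters TTCNNNGAA, the spacing that STAT proteins are known to bind, and because Socs3 had the largest difference of the list after Klf4. It lies at chr11:117969317-117969616 on the - strand (RefSeq, GRCm38.p6), printed 5′ to 3′ with the match in capitals.
Socs3: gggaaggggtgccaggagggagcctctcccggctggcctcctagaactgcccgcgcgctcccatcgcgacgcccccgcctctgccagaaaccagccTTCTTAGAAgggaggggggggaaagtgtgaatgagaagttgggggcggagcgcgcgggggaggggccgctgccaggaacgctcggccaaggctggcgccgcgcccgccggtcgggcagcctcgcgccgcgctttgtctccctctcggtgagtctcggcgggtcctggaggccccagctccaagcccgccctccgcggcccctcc
The match begins at position -154, counted from the listed start. TTCNNNGAA, whose complement reads the same, occurs in the windows of 8.5% of the 6576 genes, of 6.59% of those higher in ICM by at least 2-fold and of 8.4% of those lower by at least 2-fold. A match is a run of letters and no evidence of binding.

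BMP, nodal and TGF-beta genes had 9 of 44 higher and 11 lower (20.5% and 25.0%, beside 18.8% and 23.0% of all genes, median -0.08). Over the alternatives 5 to 9 were higher and 5 to 13 lower. Beside the fall of Nodal and the rise of Tdgf1, the BMP ligand gene Bmp4 rose 1.76-fold (9.03, 8.45 and 9.10 against 7.91 to 8.33, and 2.87 by its dimmer probe set) and the receptor gene Bmpr1a 1.97-fold (7.88, 8.42 and 7.82 against 6.81 to 7.43). Smad1, the intracellular carrier of the signal, read 8.74, 9.10 and 8.97 against 11.64, 12.03, 11.58 and 10.98. Each of Bmp4, Bmpr1a and Smad1 was free of overlap, as were 17 of the 44 in the list, beside 36.7% of all genes. Another ligand gene, Bmp2, was called lower (-0.28, with overlap), while a dimmer probe set was called higher (0.30). The inhibitor gene Smad6 fell 1.97-fold and the co-receptor gene Eng 2.32-fold, and Lefty1, a Nodal antagonist, fell 1.32-fold. Wnt genes had 5 of 37 higher and 7 lower (median -0.11), and 2 higher without ICM replicate 1 (2 to 6 higher and 3 to 10 lower over the alternatives). The Wnt antagonist gene Dkk1 rose 1.83-fold (6.91, 7.12 and 7.19 against 6.10 to 6.33), Apc fell 1.55-fold, Fzd3 1.52-fold, and beta-catenin (Ctnnb1) was not called (0.26).

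Hippo genes, which link cell contact to the choice between trophectoderm and inner cells, had 7 of 19 higher and 2 lower (median 0.08). These shares were 36.8% and 10.5%, beside 18.8% and 23.0% of all genes. The kinase gene Lats2 read 10.87, 11.82 and 11.37 in ICM and 14.02, 14.31, 13.93 and 12.66 in PGC (5.20-fold lower, -2.38 ± 0.34 SE, adjusted p = 2.25e-06). The effector genes Yap1 and Wwtr1 (TAZ) rose 2.00-fold (11.43, 12.10 and 11.70 against 10.67 to 10.86) and 2.12-fold, and their binders Amot and Amotl2 2.29-fold and 2.18-fold. The upstream gene Nf2 fell 1.45-fold, and Ccn2, a known target of YAP, rose 3.74-fold (9.98, 10.25 and 10.67 against 8.00 to 8.88). All 7 genes were free of overlap, as were 10 of the 19 in the list, beside 36.7% of all genes. The dimmer Yap1 probe set was not called (-0.07).

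Migration, adhesion and homing genes had 7 of 36 higher and 8 lower (19.4% and 22.2%, beside 18.8% and 23.0% of all genes, median -0.05). Beside Gja1, another connexin gene, Gjb5, rose 3.29-fold (8.93, 8.59 and 9.78 against 7.25 to 7.45), the laminin receptor gene Itga6 3.65-fold (7.76, 8.52 and 8.56 against 6.28 to 6.61) and the tetraspanin gene Cd9 3.99-fold (11.49, 11.64 and 10.27 against 8.95 to 9.48). N-cadherin (Cdh2) was 2.39-fold higher, not called without ICM replicate 3 (1.06) or PGC replicate 3 (1.12). Cd24a, Kit and the neural adhesion gene L1cam (1.51-fold) fell. The Kit ligand gene Kitl fell by 0.52, a call lost without ICM replicate 1 (-0.39) or 3 (-0.52) or PGC replicate 1 (-0.47) or 4 (-0.50). The integrin gene Itgav fell 1.82-fold by its brightest probe set, and a dimmer one was called higher (0.60). Itgb1 (-0.06) and the homing receptor gene Cxcr4 (-0.10) were not called.

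Extracellular matrix genes had 14 of 44 higher in ICM and 7 lower (31.8% and 15.9%, beside 18.8% and 23.0% of all genes, median 0.13). The lower count was 4 without ICM replicate 2 and 2 to 9 over the alternatives. The chains of the first laminin made by the embryo rose together: Lama1 4.71-fold, Lamb1 2.16-fold (11.05, 10.69 and 11.48 against 9.74 to 10.13) and Lamc1 1.79-fold (10.87, 10.90 and 10.86 against 9.97 to 10.11). The 2 nidogens, which tie laminin to collagen IV, split. Nid1 rose 2.41-fold (7.37, 7.29 and 7.53 against 5.71 to 6.28) while Nid2 fell (4.17, 6.69 and 5.20 against 8.38 to 8.69). Sparc rose 2.14-fold, and Col18a1, a basement membrane collagen, fell 2.95-fold (8.99, 8.69 and 9.15 against 10.24 to 10.84), with its 4 dimmer probe sets also called lower. Every gene named in this paragraph kept its groups apart. Over the list, 21 of 44 did so, beside 36.7% of all genes.

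Lysosome and endocytosis genes were the list with the highest median. Of 45 measured, 26 were higher in ICM (57.8%, beside 18.8%) and 1 lower (2.22%), with a median of 0.57 beside -0.04 over all genes; 4 were lower without ICM replicate 1, and 2 without ICM replicate 2 or PGC replicate 1. The list mean was 9.67, 9.85 and 9.63 in ICM and 8.82 to 8.97 in PGC, and 23 were higher and 4 lower with ICM replicate 3 alone. Ctsc, a protease that activates others, read 10.12, 10.92 and 10.19 against 7.16, 7.99, 7.08 and 7.21 (8.29-fold, 3.05 ± 0.24 SE, adjusted p = 6.25e-11). Psap, the precursor of lipid-degrading cofactors, rose 4.52-fold (12.82, 13.06 and 12.02 against 10.22 to 10.62), though 1 of its dimmer probe sets was called lower (-0.45). Rab11a, which recycles endosomes, rose 4.52-fold (11.37, 11.94 and 11.57 against 9.26 to 9.66) and the cholesterol carrier gene Npc2 3.75-fold (12.41, 12.25 and 12.18 against 10.25 to 10.54). All ICM arrays were above all PGC arrays in these genes.

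Lipid and cholesterol genes followed the same direction, with 18 of 42 higher (42.9%, beside 18.8% of all genes) and 5 lower (11.9%, beside 23.0%, median 0.19). The lower count was 3 without ICM replicate 2 or 3 or PGC replicate 3 and 1 to 6 over the alternatives. The desaturase gene Scd1 rose 4.23-fold (11.03, 11.12 and 10.34 against 8.42 to 9.05), though 1 dimmer probe set was called lower (-0.56). Fabp5 rose 2.47-fold and Acadl, an enzyme of fatty acid oxidation, 3.13-fold (8.42, 9.74 and 7.74 against 6.66 to 7.17; 1.64, and 1.09 without ICM replicate 2). Idi1, of cholesterol synthesis, fell 2.01-fold with overlap (10.87, 11.94 and 11.33 against 11.60 to 12.82).

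In energy metabolism, the changes were large for single enzymes of the glycolysis list. It had 11 of 31 higher and 11 lower (35.5% each, beside 18.8% and 23.0% of all genes, median 0.01). Pdk3, Pfkp and Pdk1, another inhibitor of pyruvate dehydrogenase (8.26, 8.68 and 8.94 against 10.29 to 10.80, 3.75-fold), fell, as did the lactate dehydrogenase gene Ldhb (2.01-fold). Pdha1, the enzyme that both kinases inhibit, rose 2.43-fold (12.83, 13.57 and 12.85 against 11.47 to 12.28). Fbp2, which runs the phosphofructokinase step in reverse, read 9.36, 9.62 and 11.09 in ICM and 6.54, 6.52, 6.56 and 6.65 in PGC (11.0-fold, 3.46 ± 0.22 SE, adjusted p = 5.14e-13). The 2 kinase genes were thus low and Pdha1 high in ICM, all without overlap. Dlat, another subunit gene of the pyruvate dehydrogenase complex, was called lower (-0.88), with 0.03 and no call at its dimmer probe set. Tkt, of the pentose phosphate pathway, rose 2.10-fold and the glucose transporter gene Slc2a3 1.83-fold, and Slc2a1 was not called (-0.20). Oxidative phosphorylation genes had 16 of 53 higher (30.2%, beside 18.8% of all genes) and 6 lower (11.3%, beside 23.0%, median 0.04). The higher count was 10 without ICM replicate 2. Ndufs1 and Ndufs3, of complex I, rose 3.11-fold and 2.12-fold and Uqcrc1, of complex III, 2.50-fold (10.58, 10.79 and 10.92 against 9.26 to 9.72), whereas Cox7b fell 2.12-fold and Ndufa2 2.08-fold.

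Cell cycle genes had 6 of 48 higher in ICM, beside 18.8% of all genes, and 14 lower (29.2%, beside 23.0%), with a median of -0.17. The lower count was 20 without PGC replicate 4. Over the alternatives 4 to 8 were higher and 11 to 20 lower. Plk4, which starts centriole copying, read 7.98, 9.06 and 8.28 in ICM and 10.48, 10.77, 10.54 and 9.71 in PGC (3.83-fold lower, -1.94 ± 0.28 SE, adjusted p = 2.47e-06). The spindle checkpoint gene Mad2l1 fell 2.29-fold (9.62, 10.22 and 10.48 against 11.01 to 11.64) and the helicase gene Mcm7 1.95-fold (9.79, 9.30 and 9.28 against 10.33 to 10.49), with no overlap in all 3. Cdc7 fell 2.11-fold and Mki67 2.15-fold, both with PGC replicate 4 inside the ICM range, and Mki67 was not called without ICM replicate 3 (-0.88) or PGC replicate 2 (-0.89). The mitotic genes Birc5, Aurka and Cdc20 rose 2.00-fold, 1.70-fold and 1.41-fold. Of 21 inhibitor and p53 genes 1 was higher and 4 lower (4.76% and 19.0%, beside 18.8% and 23.0% of all genes, median -0.11). In limma's fits 2 were higher without ICM replicate 3 and 0 without ICM replicate 1 or PGC replicate 2 or 3. Beside Gadd45a, Mdm4, which restrains p53, fell 2.21-fold, with a dimmer probe set called higher (0.27), and Rb1 2.05-fold.

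Apoptosis genes had 7 of 34 higher and 11 lower (20.6% and 32.4%, beside 18.8% and 23.0% of all genes, median -0.01). Over the alternatives 3 to 9 were higher and 6 to 12 lower. Pawr, a pro-apoptotic factor, read 8.25, 8.89 and 7.85 in ICM and 4.84, 4.95, 4.72 and 5.14 in PGC (10.7-fold, 3.42 ± 0.21 SE, adjusted p = 2.75e-13), and the effector caspase gene Casp6 rose 3.83-fold (8.36, 9.56 and 9.49 against 7.06 to 7.46). Both kept the groups well apart. Pdcd4 fell 2.36-fold, with PGC replicate 4 inside the ICM range. Translation and ribosome genes had 11 of 37 higher and 4 lower (29.7% and 10.8%, beside 18.8% and 23.0% of all genes, median 0.08). The lower count was 2 without ICM replicate 2 or 3 or PGC replicate 1 or 2, 1 without PGC replicate 3, 2 with median centring, 8 with quantile normalization and 0 with no group but ICM and PGC in limma's fit. Eif3c rose 2.61-fold (11.41, 11.17 and 11.34 against 9.85 to 9.99), Eif2s2 2.60-fold (9.90, 9.76 and 9.72 against 8.25 to 8.61) and Eef2 1.98-fold, and Eif4a1 fell by 0.59, a call lost without ICM replicate 3 (-0.31).

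Stress genes had 12 of 40 higher and 10 lower (30.0% and 25.0%, beside 18.8% and 23.0% of all genes, median 0.08). The inducible heat shock genes Hspa1a and Hspa1b, near-identical copies that probes may not tell apart, rose 8.31-fold (ICM replicates 2 and 3 at 11.25 and 9.43 and replicate 1 above both, against 7.64 to 8.47) and 6.50-fold (10.24, 11.20 and 9.25 against 7.22 to 7.95). All ICM arrays were above PGC, with replicate 3 the lowest, and Hspa1a was not called with that array alone (1.42). The glutathione transferase gene Gstp1 rose 4.58-fold (10.45, 10.35 and 10.83 against 8.22 to 8.49) and Sod2 2.53-fold, while Gclc, of glutathione synthesis, fell 2.77-fold and Hspa4 2.30-fold. Of 24 immediate early genes 8 were higher and 3 lower (median 0.14), and with ICM replicate 3 alone 5 and 4. Fos read 10.88, 12.10 and 11.27 in ICM and 10.03, 9.10, 8.85 and 10.21 in PGC (3.66-fold, adjusted p = 0.0001), with the dimmer probe set not called (-0.07); Jun rose 1.51-fold and Myc 1.52-fold. Atf3 rose 1.98-fold by its brightest probe set, its other 2 were not called (0.02 and 0.03), and averaged it was not called (0.34). Such genes are known to respond to handling of cells, and the groups were isolated differently, so handling and cell type cannot be told apart here.

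MHC and interferon genes had 6 of 31 higher and 9 lower (19.4% and 29.0%, beside 18.8% and 23.0% of all genes, median -0.08). The higher count was 3 without ICM replicate 1. Over the alternatives 2 to 8 were higher and 4 to 11 lower. H2-D1, an MHC class I gene, rose 1.66-fold (9.43, 9.54 and 9.46 against 8.65 to 8.93) and the interferon-induced gene Irgm1 fell 1.84-fold. B2m overlapped between groups, and its call (0.87) was lost without ICM replicate 1 (0.76) or 2 (0.57) or PGC replicate 1 (0.67) or 3 (0.58). Hox and positional genes moved little, with 2 of 30 higher and 2 lower (6.67% each, beside 18.8% and 23.0% of all genes, median 0.02). Hoxa7 fell 1.47-fold and Meis1 rose 1.54-fold, both with no overlap.

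Lines made from the 2 sources were compared in the same fit, on arrays that the embryo comparison does not share. ESC exceeded EGC in 1533 genes (18.6%) and fell below in 1716 (20.8%), 3249 in all, and in 2148 without ESC replicate 2. Of the 402 genes higher in ICM by at least 2-fold, 129 were higher in ESC than in EGC (32.1%), 60 lower (14.9%) and 213 not called, with a median line difference of 0.23 beside -0.04 over all genes. Of the 316 lower in ICM by at least 2-fold, 72 were higher in ESC (22.8%), 102 lower (32.3%) and 142 not called, with a median of -0.08. The embryo difference minus the line difference was called in 2436 genes (29.5%), in 295 of the 402 (73.4%) and in 236 of the 316 (74.7%). These genes were chosen for a large embryo difference, so that share is a description.

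Several of the largest embryo differences were not called between the lines. Gja1 stood at 12.37 in ESC and 12.72 in EGC, near its ICM level, and the 2 differences differed by 7.60 ± 0.38 (SE, adjusted p = 1.26e-14). Pramel6 was low in both lines (5.54 and 5.23), as were Crxos (4.19 and 3.84) and Spic (4.52 and 4.68). Klf4 was high in both (11.21 and 10.84), and Socs3 lay between (8.34 and 7.80). Peg3 was high in both (11.84 and 12.33), near its PGC level, as was Sox2 (11.82 and 11.80, line difference 0.01). In none of these 8 genes was ESC against EGC called.

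Other genes differed between the lines in the direction opposite to the embryo. Rhox5 stood at 10.66 in ESC and 8.02 in EGC (line difference 2.64 ± 0.17 SE, adjusted p = 2.5e-11), where ICM had been the low side, and the 2 differences differed by -5.74 ± 0.22. Rhox6 (1.21), Kit (2.92) and Prdm1 (1.21) were also higher in ESC than in EGC. Dppa2 (-1.67), Tdgf1 (-1.06), Fgf4 (-0.86), Fos (-2.31), Cd63 (-2.22) and Akr1b8 (-1.03) were lower in ESC. Each of these 10 genes was thus reversed between embryo cells and lines, and in each the difference of differences was called. Germ cell specification genes as a list had 9 of 15 higher in ESC and 1 lower, with a median line difference of 0.92 (18.6% and 20.8% of all genes, median -0.04), beside 1 of 15 higher and 7 lower in ICM.

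Other genes kept their direction. Frrs1 was higher in ICM and in ESC (line difference 2.19), Tfcp2l1 likewise (1.13), and Ccar1 (-3.64), Smad1 (-1.46) and Ndn (-0.94) were lower in both. Tfcp2l1 was the 1 gene of the 24 given here for which the embryo and line differences did not differ by limma's test (0.38 ± 0.25 SE, adjusted p = 0.284). Nanog was not called between the lines (0.24), and its embryo difference exceeded that by 0.86 ± 0.30 (adjusted p = 0.0349). Paternally expressed imprinted genes had 9 of 16 lower and 3 higher in ESC (median -0.47), beside 20.8% and 18.6% of all genes.

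**Figure D5:**
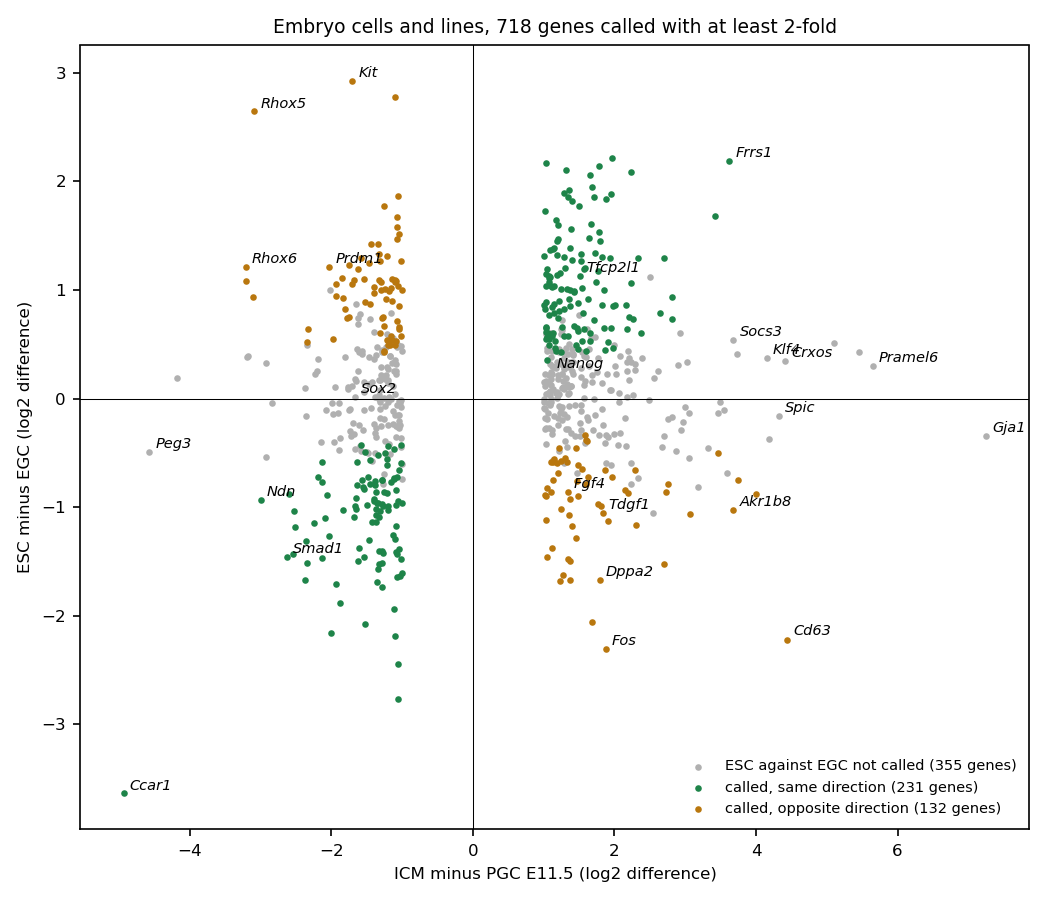
ESC minus EGC (y axis) against ICM minus PGC E11.5 (x axis), both in log2, for the 402 genes called higher and the 316 called lower with at least a 2-fold difference between ICM and PGC. Grey genes were not called between the lines, green genes went the same way and orange genes the opposite way; Gja1 and Peg3 lie near 0 on the y axis, and Rhox5, Kit and Cd63 lie in the opposite quadrants.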

How the data were processed

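RNA from each sample was copied in 2 in vitro transcription steps, labelled with biotin and read on Affymetrix MG-U74Av2 arrays, per the labels' protocols. The deposited values are log2 expression values made by the authors with RMA, per the submitters' processing notes; the version is not given in the sources used here. Of 12488 probe sets, 66 were controls, 396 had several symbols and 1193 none, which left 10833. Symbols of 10817 were updated through RefSeq and 16 kept from the platform table. The 34 columns held 2 means of other columns (within 1e-06), left out.

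All 10 groups were fitted together (limma 3.58.1 in R 4.3.3, 22 residual degrees of freedom), with Benjamini-Hochberg adjustment over all probe sets and calls at adjusted p under 0.05; the script was tested on simulated data. A gene is its brightest probe set. The labels call replicates biological. The p-values measure the spread between samples of a group, pooled over all 10 groups. Genes named were the 15 largest rises and falls without overlap of arrays or a probe set called the other way, up to 6 called members per list and direction and 3 not called, and a fixed set of marker genes. Pramel7 stands outside that rule. The members, the 36 lists (1012 of 1258 entries measured) and the tests were chosen with earlier results of these data known. Replicate numbers did not pair ICM with PGC (residual correlations -0.160, 0.251 and 0.020). Alternatives were median centring, quantile normalization, other probe set rules and filters, fits of fewer arrays, a replicate block and leaving out each array. ICM replicate 3 alone was added after seeing the data. Promoter windows matched 6576 of 8251 genes.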

Additional observations from a re-analysis of the deposited data

Results flagged for a closer look

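Among the 211 genes examined array by array, 14 had 1 PGC array far from the other 3. Chance gives about 1 in 20 groups, which is close to that share, so the count is a description. In 8 of them that array was replicate 4, and it was the lowest: Ddx4 read 6.24 there, Dmrt1 6.89, Epcam 7.31, Kit 7.91, Ndufs1 9.10, Pdcd4 10.27, Tdp2 11.63 and Tfap2c 11.71. Of these, Ddx4, Dmrt1, Kit and Tfap2c are known germ cell genes. Its erythroid list mean was also the highest of the PGC arrays (7.62), and the part of other cells in these values was not tested. In the remaining 6 genes the array apart was replicate 1 for Nid1 (5.71), Syce2 (8.30) and Tfcp2l1 (11.26), replicate 2 for Ctsc (7.99) and Tpm1 (9.09) and replicate 3 for Sparc (9.37). All of these genes except Ddx4, which was not called, were called between ICM and PGC with replicate 4 included.

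Of the 24 genes followed into the lines, 23 had an embryo difference unlike the line difference by limma's test of the difference itself. The embryo difference was the more positive for Gja1 (by 7.60), Cd63 (6.66), Pramel6 (5.34), Akr1b8 (4.71), Spic (4.47), Fos (4.18), Crxos (4.06), Klf4 (3.78), Dppa2 (3.47), Socs3 (3.14), Tdgf1 (2.89), Fgf4 (2.20), Frrs1 (1.43) and Nanog (0.86). It was the more negative for Rhox5 (-5.74), Kit (-4.63), Rhox6 (-4.42), Peg3 (-4.09), Prdm1 (-3.24), Ndn (-2.06), Sox2 (-1.68), Ccar1 (-1.30) and Smad1 (-1.17). Nearly all of these genes were picked for large embryo differences, so their number is a description.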

How the results depend on the processing

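Counts of called genes depended on how many arrays shaped the spread. With ICM and PGC alone in the fit 1064 genes were higher and 1196 lower, 2260 in all, beside 1548, 1897 and 3445 with all groups. Leaving out 1 ICM or PGC array gave 1404 to 1531 genes higher and 1577 to 1890 lower, and leaving out 1 ESC or EGC array gave 2148 to 3003 genes between the lines. With the replicate number as a block over ICM and PGC replicates 1 to 3, 1008 genes were higher and 1100 lower, and the same 6 arrays without the block gave 1198 lower; the numbers do not pair the samples. The other alternatives moved these counts by less than 1.5 times. Of 211 genes, 161 kept their call and direction in every alternative that held them (up to 20, since those that drop probe sets lack some genes) and 50 did not, 31 of them outside the fits of few arrays. In that fit of ICM and PGC alone, calls were lost for B2m, Dppa4, Eed, Eif4a1, Emcn, Esrrb, Gdf3, Idi1, Igf2 and Impact. It also ended those of Lifr, Magel2, Mki67, Mt1, Peg10, Pkp2, Pou5f1, Trap1a, Trim28 and Zfp42. Array weights ended those of Cdh2, Eed, Ehmt2, Esrrb, Gdf3, Kitl, Lefty1, Magel2, Mest and Pou5f1, quantile normalization those of B2m, Cdc20, Dppa5a, Gdf3 and Igf2, and median centring those of Kitl and Magel2. Averaging probe sets ended those of Atf3, Fgfr2, Gdf3, Grb10, Igf2, Itgav and Pou5f1 and gave Dazl (-0.77) and Gata6 (0.60) one, and plain probe sets ended those of Gnas, Lamc1 and Socs3. In all, 7 values reversed. With plain probe sets only, which reads another probe set, Dab2 was -0.24, Grb10 -0.23, Igf2 -0.24 and Itgav 0.60, and Lifr was 0.00 with its probe sets averaged. With ICM replicate 3 alone Dppa4 was 0.06 and Lifr 0.18. No detection calls were used, so genes near background have uncertain folds, and strain, stage, isolation and cell type cannot be told apart.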
